A study of Mus musculus with 18 samples.

Results

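The 41 genes described here encode enzymes and regulators of fatty acid oxidation, of the peroxisome and of ketone body metabolism. They were chosen as a list of gene symbols, and all 41 were found among the 47729 genes of the count table. By location, 13 were peroxisomal enzymes, 18 were mitochondrial enzymes, 3 were peroxins, 3 were ketone body enzymes and 2 were regulators of transcription. *Crat*, an enzyme of both compartments, and *Cpt1c*, a carnitine palmitoyltransferase of the endoplasmic reticulum of neurons, were put on neither side. RNA was sequenced from the eyecups of 9 *rd1* mice at P40, a strain that loses its rods and then its cones through a defect in *Pde6b*. In each mouse, an eye that received AAV-Best1-Nrf2 together with AAV-Best1-GFP (Best1-Nrf2 eye) was compared with the fellow eye, which received AAV-Best1-GFP alone (control eye). Per the labels, all 18 eyes were *rd1* and carried the GFP vector, and no uninjected eye was analysed here. The study's methods give fewer *rd1* pairs at this age, beside pairs of wild-type CD1 mice that would bring the total to the 9 pairs here, so the genotype rests on the labels. *Pde6b*, a rod gene, was at most 0.545 CPM (counts scaled to library size) in any of the 18 libraries. With the retina removed before RNA was taken, a low level of a rod gene cannot tell the strains apart. The Nrf2 insert is a human cDNA under the human Best1 promoter, which is active in the retinal pigment epithelium (RPE). After the retina was removed, the eyecup was placed in an RNA-preserving solution. RNA was purified from the supernatant, and the study names it RPE RNA. Choroid, sclera and retinal remnants could still contribute. The labels give neither the sex of the mice nor the sequencing run of each library.

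Fatty acids are shortened by beta-oxidation in mitochondria and in peroxisomes. Mitochondria take up common long-chain acids through the carnitine shuttle and pass the electrons to the respiratory chain, whereas peroxisomes handle very-long-chain, branched-chain and bile acid side chains and give the electrons of their oxidases to oxygen, which forms hydrogen peroxide. RPE cells ingest lipid-rich outer segment tips, oxidize the fatty acids and make ketone bodies that they can pass to photoreceptors. Nrf2 is a transcription factor of the oxidative stress response, which binds the antioxidant response element (ARE) together with small Maf proteins.

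Of the 41 genes, 1 rose in Best1-Nrf2 eyes and none fell, whereas 4.25% of all 18958 genes tested passed the test (edgeR quasi-likelihood F test with mouse as a block, adjusted p under 0.05). This gene was *Acox2*, which encodes the branched-chain acyl-CoA oxidase of peroxisomes, the enzyme that starts the shortening of branched-chain fatty acids and of bile acid intermediates. It is located in GRCm38 at chr14:8225511-8259353 on the minus strand. Its RefSeq promoter window, from 250 bases before to 50 bases after an annotated start, is shown because it holds a match to the ARE core TGACNNNGC, which was searched on both strands. Capitals mark the match, and the sequence is from GRCm38.p6, chr14:8258970-8259269, in the direction of the gene:
Acox2: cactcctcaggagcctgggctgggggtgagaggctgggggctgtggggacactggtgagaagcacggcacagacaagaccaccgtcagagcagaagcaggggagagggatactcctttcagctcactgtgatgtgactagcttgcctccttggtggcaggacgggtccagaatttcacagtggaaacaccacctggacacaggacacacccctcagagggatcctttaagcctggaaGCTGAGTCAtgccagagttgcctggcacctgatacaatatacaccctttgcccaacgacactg
The match lay on the strand opposite to the gene at chr14:8259024-8259032, at position -13 from this start and -193 from another annotated start, and it overlapped the heptamer TGAGTCA that AP-1 binds. Only 2 other genes of the 34 listed genes with a window held such a match. They were *Ehhadh* and *Scp2*, both on the minus strand, and the matches are given with 10 flanking bases for comparison (*Ehhadh*, chr16:21787991-21787999, and *Scp2*, chr4:108118545-108118553, both matches on the strand of the gene):
Ehhadh: gttggtggtgTGACCCAGCagtttggctt
Scp2: gccccgccccTGACGCTGCggccccgccc
The share of listed genes with a match, 8.82%, was below the 13.99% of all 27025 genes in the promoter table. Of 5 established Nrf2 targets with a window, 3 held a match (*Gclm*, *Srxn1* and *Txnrd1*). A match in these letters describes the sequence and was not tested for binding, and *Ehhadh* and *Scp2* did not pass the test at the RNA level.

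Library totals ranged from 18956748 to 44054836 counts in control eyes and from 32839893 to 49598700 in Best1-Nrf2 eyes. *Nfe2l2*, the mouse gene for Nrf2, to which reads of the human cDNA may add, rose from 89.7 ± 17.8 to 453 ± 147 CPM (SD, n = 9 each), and all 7 Nrf2 target genes taken as a check rose, by a median log2 fold change of 4.08. Over all genes tested, 3.12% were called higher and 1.13% lower in Best1-Nrf2 eyes, and the median log2 fold change of all genes was -0.03. Markers of other cells moved with the groups. Of 10 cone markers, 9 were lower (summed CPM, 298 to 2258 with the control vector against 54.1 to 534 with Best1-Nrf2), and 9 of 14 macrophage markers were higher (171 to 508 and 178 to 765). Of 9 rod markers tested, 4 were lower and 1 was higher (172 to 951 and 269 to 598). Of 19 RPE markers, 7 were lower and none was higher, with a summed level of 14369 to 71917 CPM in control and 17965 to 81261 CPM in Best1-Nrf2 eyes, and *Rpe65*, a defining RPE gene, was found at 810 to 3429 and 172 to 718 CPM. The Best1-Nrf2 libraries of mice 3, 6 and 8 stood apart, in that transcripts of ribosomal proteins took 2.58%, 1.34% and 2.01% of their counts, against 0.603% to 0.949% in the other 6, and the control libraries of mice 3, 5 and 8 had 1.84%, 1.57% and 2.05%. Inner retina markers were highest, at 2194 CPM in sum, in the Best1-Nrf2 eye of mouse 6, against 96.8 to 678 CPM in the other 17 eyes. In bulk RNA, fewer cells of a type and less RNA per cell cannot be told apart.

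The rise of *Acox2* took it from the lowest to the third highest level per length among the 13 peroxisomal enzymes. In control eyes its level was low, at 1.13 CPM in the lowest eye, 2.92 CPM at the median and 4.59 CPM in the highest. In Best1-Nrf2 eyes the lowest level was 51.1 CPM, the median was 172 CPM and the highest was 240 CPM. The groups did not overlap, and each of the 9 mice had more *Acox2* in its Best1-Nrf2 eye, by 4.20 to 7.61 on the log2 CPM scale. The log2 fold change was 5.47 (SE 0.40, adjusted p = 1.26e-05), a fold of 44.3 with a 95% interval of 24.2 to 81.1. The lowest count of *Acox2* in any library was 45, and the gene shares only 1.05% of the 31-base words of its transcripts with other genes. Of the 41 genes, *Acox2* alone did not overlap between the groups, as was the case for 1.17% of all genes tested (1.05% higher and 0.116% lower). The call was made under each of the 20 alternative analyses, with a log2 fold change between 4.80 and 5.86. It was weakest, at 4.80 (adjusted p = 0.0474), when the level of photoreceptor markers was added to the model.

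**Figure D1:**
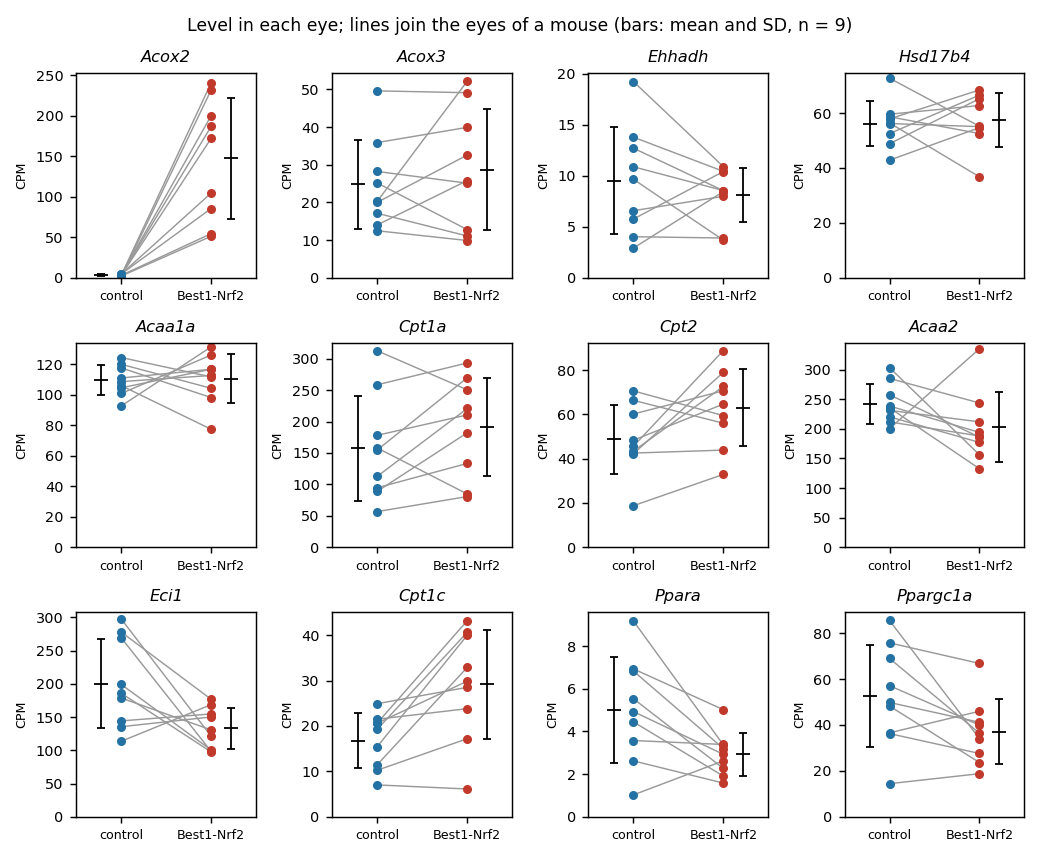
Level (CPM) of 12 of the named genes in each of the 18 eyes, with lines joining the eyes of a mouse and bars for mean and SD (n = 9 each). *Acox2* lies at or below 4.59 CPM in control and at or above 51.1 CPM in Best1-Nrf2 eyes, whereas the groups overlap for the other genes shown.

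Levels of *Acox2* among the Best1-Nrf2 eyes followed the level of *Nfe2l2*. The lowest 3 eyes were those of mice 6, 8 and 3 (51.1, 54.4 and 85.3 CPM), and the highest 3 were those of mice 4, 7 and 5 (240, 232 and 200 CPM). *Nfe2l2* was at 275, 294 and 428 CPM in the former and at 704, 606 and 545 CPM in the latter. Across the 9 Best1-Nrf2 eyes, log2 levels of the 2 genes gave Pearson's r = 0.914 (2-sided exact permutation p = 0.000441, adjusted p = 0.000934) and Spearman's rho = 0.983 (exact p = 4.96e-05, adjusted p = 0.000149). Without mice 6 and 8, the eyes farthest from the median of *Nfe2l2*, r was 0.814. With the summed level of the 7 Nrf2 targets r was 0.953 (exact permutation p = 0.000623, adjusted p = 0.000934) and rho was 0.950 (exact p = 0.000353, adjusted p = 0.000529), and r was 0.998 without mice 3 and 6. With the summed RPE markers r was -0.612 (exact permutation p = 0.0658) and rho was -0.450 (exact p = 0.230), and r was -0.370 without mice 3 and 6. These were the 3 relations tested across the 9 eyes, and they were chosen after the values had been seen. The sum of RPE markers is weighted to the most abundant of them, and their mean log2 CPM ordered the eyes otherwise. Mouse 6 had 54469 CPM in sum and a mean of 8.63, whereas mouse 4 had 27846 CPM and 9.15. No relation with that mean was tested, so the sign found with the sum does not describe RPE content.

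The 3 Best1-Nrf2 eyes with the lowest *Acox2* were also those with the highest share of ribosomal protein transcripts. Within the other 6 libraries, a split made after the values had been seen, r was 0.972 for *Nfe2l2*, 0.993 for the targets and 0.235 for the summed RPE markers. These values rest on a choice of libraries made from the data, and no conclusion is drawn from them. Without both eyes of mice 6 and 8, the log2 fold change of *Acox2* was 5.77 (adjusted p = 4.11e-05), and without mouse 3 it was 5.67 (adjusted p = 5.39e-05). The part of library composition in the levels of *Acox2* was not tested.

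Acyl-CoA oxidases catalyse the entry step of peroxisomal beta-oxidation, and *Acox3* is a further branched-chain oxidase. Levels were compared per length, in CPM per kilobase of exon. *Acox2* stood at 0.818 ± 0.286 in control and 39.8 ± 20.1 in Best1-Nrf2 eyes (SD, n = 9 each). *Acox3* stood at 2.15 and 2.49 (log2 fold change 0.11, adjusted p = 0.935), although its annotated exon length of 11521 bases lowers that value. *Acox2* exceeded *Acox3* per length in 9 of 9 Best1-Nrf2 eyes and in 1 of 9 control eyes.

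None of the enzymes of the steps after the oxidase passed the test. *Ehhadh*, the bifunctional enzyme of straight-chain and dicarboxylic acids, had 2.91 to 19.2 CPM in control and 3.68 to 10.9 CPM in Best1-Nrf2 eyes (log2 fold change -0.12, 95% interval -0.75 to 0.51). *Hsd17b4*, the bifunctional enzyme that acts after *Acox2* on branched-chain substrates, had 42.9 to 72.8 CPM in control and 36.8 to 68.5 CPM in Best1-Nrf2 eyes (log2 fold change 0.03, 95% interval -0.30 to 0.35). The groups overlapped for both genes. Among the thiolases that close the cycle, *Acaa1a* had a log2 fold change of 0.00 (95% interval -0.30 to 0.31), *Acaa1b* of 0.11 (95% interval -0.27 to 0.49) and *Scp2*, whose product also cleaves branched-chain and bile acid intermediates, of -0.19 (95% interval -0.58 to 0.20). These intervals allow a change of less than 2-fold in either direction. *Acaa1b* shares 40.01% and *Acaa1a* 18.1% of 31-base words with other genes, chiefly with each other, and *Scp2* shares 33.4%, so that their counts are uncertain.

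None of the remaining peroxisomal enzymes passed the test, and each 95% interval lay within a 2-fold change. *Amacr*, the racemase that prepares branched-chain acids for oxidation, differed by 0.03 on the log2 scale, and *Phyh* and *Hacl1*, which remove a carbon from phytanic acid by alpha-oxidation, differed by 0.15 and 0.20, with 31.2% of 31-base words of *Hacl1* shared. *Decr2* and *Eci2*, which process unsaturated acids, differed by 0.10 and -0.20, and *Crot*, which hands shortened chains to carnitine for export, by -0.27. Per length, *Scp2* (122 CPM per kilobase in control eyes) and *Phyh* (75.4) were the most abundant of the 13. Peroxins, which import proteins into peroxisomes or divide them, did not pass the test either. *Pex5*, the receptor of imported enzymes, had a log2 fold change of -0.04, *Pex14*, its docking protein, of -0.25 and *Pex11a*, a division factor, of -0.43 (adjusted p = 0.395). For *Pex11a*, the range was 19.2 to 53.0 CPM in control and 21.4 to 30.2 CPM in Best1-Nrf2 eyes.

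**Figure D2:**
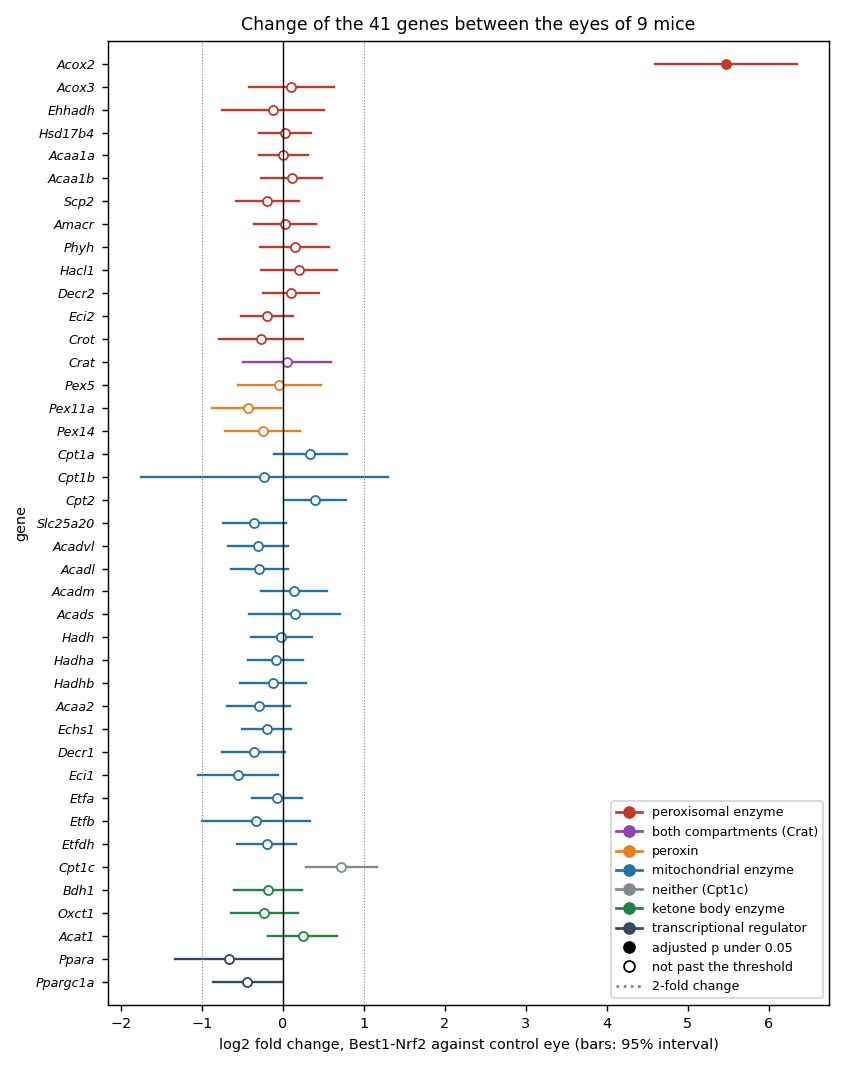
Log2 fold change of each of the 41 genes between Best1-Nrf2 and control eyes (horizontal axis) with its 95% interval, coloured by location, with filled symbols for an adjusted p under 0.05 and dotted lines at a 2-fold change. *Acox2*, at 5.47, is the only filled symbol, and 36 of the 41 intervals lie between the dotted lines.

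None of the 18 mitochondrial enzymes passed the test, and 2 of them (11.1%) had an unadjusted p under 0.05, beside 12.8% of all genes tested. The point estimates were negative in 14 of the 18, with a median log2 fold change of -0.20 (range, -0.55 to 0.40), beside -0.03 for all genes. In the carnitine shuttle the point estimates differed in sign. *Cpt1a*, the rate-controlling enzyme of uptake, had 56.7, 155 and 313 CPM as lowest, median and highest control values and 80.6, 211 and 293 CPM with Best1-Nrf2 (log2 fold change 0.34, adjusted p = 0.584). *Cpt2*, which rebuilds acyl-CoA in the matrix, had 18.8, 45.6 and 70.6 CPM and then 32.9, 64.6 and 88.8 CPM (log2 fold change 0.40, adjusted p = 0.334, 7 of 9 mice higher). Neither difference passed the test, and the groups overlapped for both genes. *Slc25a20*, the carnitine carrier between them, had a log2 fold change of -0.35 (adjusted p = 0.470), and *Cpt1b*, the muscle form, reached at most 1.01 CPM in any eye and shares 79.7% of its 31-base words.

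Acyl-CoA dehydrogenases, which carry out the opening step of each mitochondrial cycle for chains of different length, had estimates of either sign and did not pass the test. *Acadvl* and *Acadl*, for very long and long chains, had log2 fold changes of -0.31 and -0.29, and *Acadm* and *Acads*, for medium and short chains, had 0.14 each, with adjusted p from 0.513 to 0.915. *Etfa*, *Etfb* and *Etfdh*, which pass their electrons on to the respiratory chain, had -0.08, -0.33 and -0.20. *Etfb* had the highest level per length of all 41 genes (387 CPM per kilobase in control eyes), with the reservation that it shares 49.9% of its 31-base words with other genes. *Hadha* and *Hadhb*, the subunits of the trifunctional protein, whose genes lie head to head with 85 bases between their starts, had nearly equal values of -0.09 and -0.12. *Hadh*, *Echs1* and the thiolase *Acaa2* had -0.02, -0.20 and -0.30. Among the enzymes of unsaturated acids, *Decr1* had -0.36 and *Eci1* had the lowest value of all mitochondrial enzymes, -0.55 (SE 0.23, adjusted p = 0.303, 6 of 9 mice lower), with 114, 186 and 298 CPM in control and 97.5, 131 and 177 CPM in Best1-Nrf2 eyes as lowest, median and highest. The groups overlapped for *Eci1* and for each of the other 17.

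**Figure D3:**
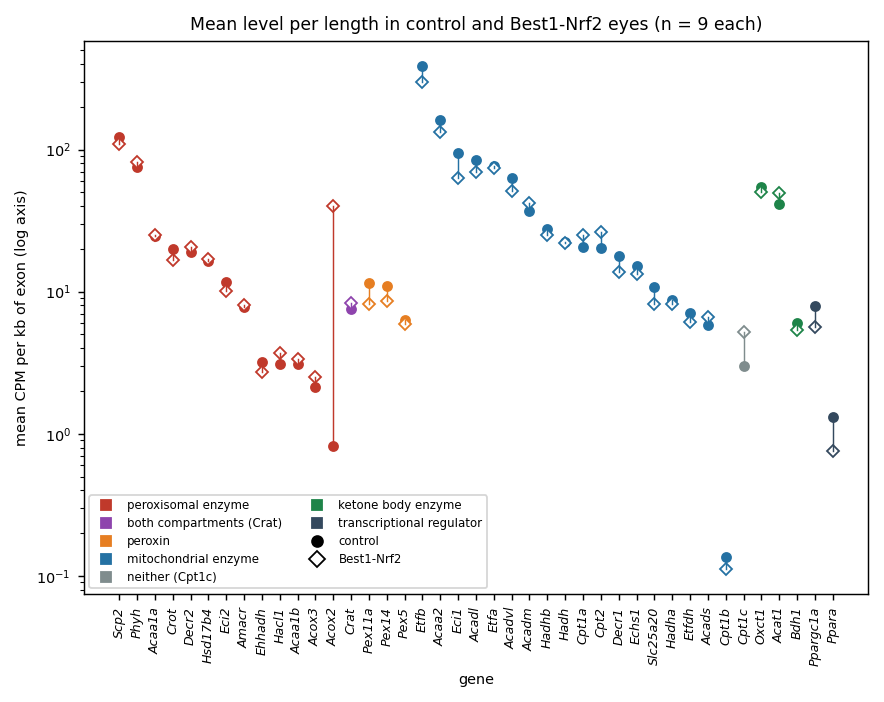
Mean level per length (CPM per kilobase of exon, log axis) of each gene in control eyes (filled circles) and Best1-Nrf2 eyes (open diamonds), n = 9 each, coloured by location. *Etfb* is highest at 387 in control eyes, and *Acox2* moves from 0.818 to 39.8, the only change past the threshold.

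The difference between the eyes of a mouse had a slightly higher median over the peroxisomal than over the mitochondrial enzymes, a gap that was not tested. The median log2 fold change was 0.03 for the 13 peroxisomal and -0.20 for the 18 mitochondrial enzymes, with 9 positive values among the former and 4 among the latter. The peroxisomal median difference between the eyes was above the mitochondrial one in each of the 9 mice, by 0.05 to 0.56 (mean, 0.26 ± 0.17; SD, n = 9). Without *Acox2* the gap remained above 0 in the 9 mice, at 0.03 to 0.41 (mean, 0.17 ± 0.12; SD, n = 9). Enzymes of a pathway are not independent replicates. In summed level, peroxisomal enzymes lay below mitochondrial enzymes throughout. They had 882 to 1256 CPM in control and 843 to 1472 CPM in Best1-Nrf2 eyes, and mitochondrial enzymes had 1695 to 2886 and 1814 to 2669 CPM, ranges that overlapped.

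Both medians, which come from the same libraries, varied from mouse to mouse. The mitochondrial median was lowest in mice 6 and 2 (-0.72 and -0.70), followed by mice 9 and 1 (-0.31 each), and was highest in mouse 8 (0.50). The peroxisomal median was -0.16 and -0.20 in mice 6 and 2, -0.15 and -0.16 in mice 9 and 1, and 0.55 in mouse 8. RPE markers also differed between the eyes to an unequal degree, with a median difference of -0.86 and -1.03 in mice 6 and 2, -1.33 and -1.45 in mice 9 and 1, and 0.08 in mouse 8. When the level of RPE markers was added to the model, the medians turned to 0.31 for peroxisomal and 0.16 for mitochondrial enzymes, and 1 gene, *Acox2*, still passed the test. With the photoreceptor markers they were 0.14 and -0.19. The part of the RPE content in these medians was not tested further.

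**Figure D4:**
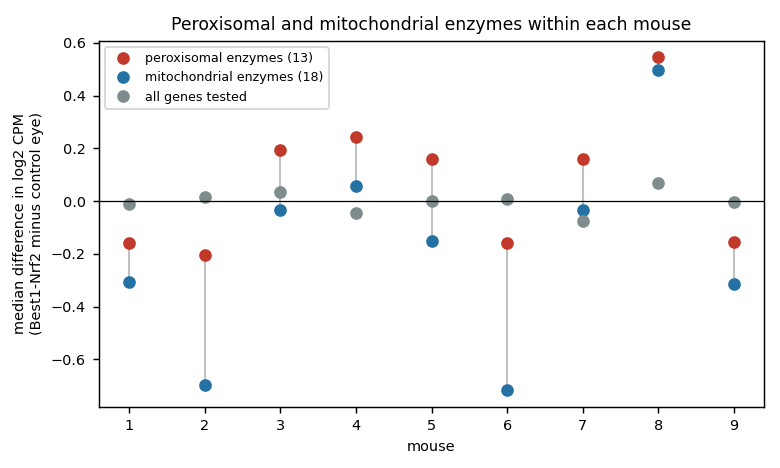
Median difference in log2 CPM between the eyes of each mouse over the 13 peroxisomal enzymes, the 18 mitochondrial enzymes and all genes tested. The peroxisomal median lies above the mitochondrial one in each of the 9 mice, by 0.05 to 0.56, and both are highest in mouse 8.

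Ketone body enzymes among the 41 genes did not pass the test. *Acat1*, the thiolase that joins and splits acetoacetyl-CoA, had 88.9 to 213 CPM in control and 120 to 267 CPM in Best1-Nrf2 eyes (log2 fold change, 0.24). *Bdh1*, which interconverts acetoacetate and beta-hydroxybutyrate, had a log2 fold change of -0.18, and *Oxct1*, which activates acetoacetate for use as fuel, of -0.23. Adjusted p ranged from 0.714 to 0.815 for the 3 genes.

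Both regulators had negative point estimates that were not called. *Ppara*, the nuclear receptor that fatty acids activate, was at 1.03, 4.93 and 9.18 CPM as lowest, median and highest control values and at 1.58, 2.93 and 5.02 CPM in Best1-Nrf2 eyes. It was lower in 8 of 9 mice, with a log2 fold change of -0.67 (95% interval -1.33 to -0.01, adjusted p = 0.378), and the exception was mouse 8, whose control library was the shallowest and held 18 counts. *Ppargc1a*, a coactivator of mitochondrial and oxidative genes, was at 14.4, 49.8 and 85.6 CPM in control and 18.8, 36.4 and 66.8 CPM in Best1-Nrf2 eyes (log2 fold change -0.44, adjusted p = 0.366, 7 of 9 mice lower). The levels of both genes overlapped between the groups.

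Closest to the threshold among the other 40 genes was *Cpt1c*. Its levels were 7.01, 19.3 and 24.9 CPM as lowest, median and highest in control eyes and 6.12, 29.9 and 43.2 CPM in Best1-Nrf2 eyes. It was higher in 8 of 9 mice, and the log2 fold change was 0.72 ± 0.20 (SE), at an adjusted p of 0.0776. It passed the test without mouse 6 (adjusted p = 0.0476) or without mouse 8 (adjusted p = 0.0339). Its adjusted p was 0.0162 with DESeq2 and 0.00782 with limma voom, but 0.235 without the mouse block, 0.211 without mouse 7, 0.499 with RPE markers in the model and 0.765 with photoreceptor markers. The log2 fold change fell to 0.51 and 0.29 with these markers. Of the 41 genes, 6 had an unadjusted p under 0.05 (*Acox2*, *Cpt2*, *Cpt1c*, *Eci1*, *Ppara* and *Ppargc1a*), a share of 14.6% that is near the 12.8% of all genes tested, and the median log2 fold change was -0.12. The 95% interval lay within a 2-fold change in either direction for 36 of 41 genes, and it reached beyond for *Acox2*, *Cpt1b*, *Cpt1c*, *Eci1* and *Ppara*.

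Among other genes of the pathway, catalase rose. Of 94 further genes of fatty acid oxidation, peroxisomes, ketone bodies and PPAR-alpha signalling, 82 were tested, 3 rose and 3 fell, beside 3.12% and 1.13% of all genes, with a median log2 fold change of -0.07. *Cat*, the peroxisomal catalase that breaks down hydrogen peroxide, had 89.0, 226 and 496 CPM as lowest, median and highest control values and 260, 635 and 909 CPM in Best1-Nrf2 eyes (log2 fold change 1.15 ± 0.26 SE, adjusted p = 0.0252, 9 of 9 mice). *Ephx2*, an epoxide hydrolase of cytosol and peroxisomes, went from a median of 55.6 to 95.8 CPM (log2 fold change 0.82 ± 0.20 SE, adjusted p = 0.0421, 8 of 9 mice). *Lpin1*, a phosphatidate phosphatase that also acts as a coactivator, went from a median of 11.7 to 28.9 CPM (log2 fold change 1.19 ± 0.21 SE, adjusted p = 0.00579, 9 of 9 mice). Levels of all 3 genes overlapped between the groups.

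Among the genes that fell were targets of PPAR-alpha. *Angptl4*, a secreted inhibitor of lipoprotein lipase, went from a median of 36.0 to 11.5 CPM (log2 fold change -1.70 ± 0.21 SE, adjusted p = 0.000457), and *Acot1*, a cytosolic acyl-CoA thioesterase, from 24.1 to 10.2 CPM (log2 fold change -1.13 ± 0.21 SE, adjusted p = 0.00815), each in 9 of 9 mice. Of the 8 tested genes listed as PPAR-alpha targets, 2 fell, none rose and the median was -0.69, beside 1.13% of all genes called lower. Activity of the receptor was not tested. *Pdk4*, also in that list, had a positive value of 0.79 (adjusted p = 0.0740, 9 of 9 mice).

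All 6 of these calls were lost when the level of RPE or of photoreceptor markers was added to the model. Most calls over all genes were lost as well, from 806 to 201 with RPE markers and to 34 with photoreceptor markers. The loss is thus not particular to these 6 genes. With RPE markers in the model, the adjusted p was 0.104 for *Angptl4*, 0.433 for *Acot1*, 0.0631 for *Cat*, 0.214 for *Ephx2* and 0.130 for *Lpin1*, with log2 fold changes of -1.39, -0.48, 1.77, 1.04 and 1.36. With photoreceptor markers in the model, the adjusted p ranged from 0.146 to 0.829, and the sizes behaved unequally. *Cat* stayed at 1.14, *Angptl4* at -1.54 and *Lpin1* at 0.90, whereas *Acot1* was at -0.22 and *Ephx2* at 0.21. The call of *Cat* was also lost without mouse 2, 4, 5, 7 or 8 (adjusted p, 0.0627 to 0.0813), and that of *Ephx2* when any mouse other than mouse 6 was left out (0.0526 to 0.128).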

How the data were processed

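Poly(A) RNA of eyecups was amplified with a low-input kit and sequenced from both eyes of 9 *rd1* mice (18 libraries) in separate runs, which the labels do not assign to libraries. The study's methods describe fewer *rd1* pairs at this age than the labels hold, beside wild-type pairs. The authors mapped reads by STAR to the mm10 genome and Ensembl transcripts, counted them with featureCounts, and estimated transcript levels by Salmon, imported with tximport for DESeq2. The submitters' processing notes name FastQC and Salmon 0.8.1. Values of the deposited table are expected counts for each Ensembl gene, in whole numbers without scaling between libraries. The unit was inferred from the values, and the counter that made the table is not given in the sources used here. No molecular identifiers are described, so precision from counts covers counting error only.

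Symbols were found for 47224 of 47729 gene IDs. Genes were kept by filterByExpr (18958 genes) and scaled by TMM. Testing was by edgeR 4.0.16 (R 4.3.3), with its quasi-likelihood F test and mouse as a block, and p-values were adjusted by Benjamini-Hochberg over all genes tested (threshold, 0.05). Log2 CPM used a prior count of 2. The SE came from the F statistic. CPM was divided by union exon length (GENCODE M21, GRCm38) for levels per length. The share of 31-base words that a gene's transcripts have in common with those of other genes was used to mark uncertain counts. Promoter windows of 34 of the 41 genes were taken from RefSeq (GRCm38.p6). The script was tested on simulated counts in which 200 genes were changed. There edgeR recovered 30.8% of 2-fold and 78.9% of 4-fold changes, and 3.39% of its calls were false. The false share was 26.4% with DESeq2 and 3.85% with limma voom, so calls made by DESeq2 are less certain.

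Pairs were taken from the animal number in the labels. After removal of group means, the correlation between the eyes of a mouse had a median of -0.00095 (range, -0.37 to 0.64). P-values measure the spread between these 9 mice. The 41 genes, the further lists and the tests were chosen with earlier results of these data known, so they are described by counts and medians, with no test over a list. Named were all 41 genes, those of the further list past the threshold, *Nfe2l2* and 7 Nrf2 targets. *Pdk4* was named after its values were seen. Some genes of the further list are not reported here by name. Alternatives were RLE and upper-quartile scaling, other filters, DESeq2 1.42.0, limma 3.58.1 (voom with sample weights), no mouse block, marker covariates, a looser threshold and leaving out mice.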

Additional observations from a re-analysis of the deposited data

Results flagged for a closer look

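In each of the 82 groups of 9 eyes (41 genes, control and Best1-Nrf2), the highest and lowest log2 CPM values were screened for a sample far from the others (Dixon's test, critical gap of 0.493 of the range). Of these groups, 6 held such a sample, where chance at 5% gives about 4.1. In the control eye of mouse 8, the smallest library, *Cpt2* was lowest at 4.23 (next eye, 5.402), *Ppargc1a* was lowest at 3.86 (next eye, 5.18) and *Slc25a20* was lowest at 4.64 (next eye, 5.47), with 329, 253 and 436 counts. The same library had the lowest sum of RPE markers (14369 CPM), and the part of this in the 3 values was not tested. In the Best1-Nrf2 eye of mouse 8, *Cpt1c* was lowest at 2.63 (next eye, 4.11; 189 counts) and *Scp2* was highest at 9.50 (next eye, 8.75). In the Best1-Nrf2 eye of mouse 6, which held the most inner retina markers, *Hsd17b4* was lowest at 5.20 (next eye, 5.72).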

How the results depend on the processing

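*Acox2* passed the test under each of 20 alternatives, with 5.22 to 5.67 on the log2 scale when 1 mouse was left out. Of the 41 genes, 39 were called neither in the reported analysis nor under any alternative, and *Cpt1c* was the 1 gene whose call changed. Only 10 genes kept the sign of their log2 fold change throughout. Genes called of the 41 numbered 2 with DESeq2, with limma voom, at an adjusted p under 0.1 and without mice 6 and 8 together, and 1 to 2 when 1 mouse was left out. With *Acox2* left out (chosen after seeing the data), 0 peroxisomal enzymes were called, and 0 mitochondrial enzymes were called under any alternative. Genes called over all genes numbered 1478 with DESeq2, 1426 with limma voom, 201 with RPE markers and 34 with photoreceptor markers in the model, and 540 to 1046 with 1 mouse left out. Calls in the lower direction, 214 in all, fell to 116, 128, 129, 124 and 130 without mice 1, 3, 5, 7 and 9. Genes called of the further list numbered 11 with DESeq2, 10 with limma voom and 0 with either marker level. The peroxisomal median was 0.31 with RPE markers in the model, and the mitochondrial median changed sign to 0.16 there. Without the replicate block, 742 genes were called over all genes, 1 of the 41 and 4 of the further list, where *Cat* (adjusted p = 0.0556) and *Lpin1* (adjusted p = 0.0511) lost their call. The causes of these differences were not tested. Of the mitochondrial enzymes, 2 had an unadjusted p under 0.05 in the edgeR test, and DESeq2 and limma voom called 0.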
